A study of Mus musculus with 45 samples.

Results

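The cytosolic ribosomal protein genes encode the proteins that, with the ribosomal RNAs, build the small (40S, Rps) and large (60S, Rpl) subunits of the ribosome. They were chosen by gene symbol alone: the names of the Rpl and Rps series with Rpsa, Rplp0, Rplp1 and Rplp2, without pseudogenes named as such and without the S6 kinases. The rule found 86 of the 22904 genes in the count table, 36 of the small and 50 of the large subunit. Of these, 77 were the single named gene of a subunit and 9 were duplicates by name (Rpl3l, Rpl6l, Rpl7l1, Rpl22l1, Rps12l1, Rps27l, Rps3a2, Rps3a3 and Rps4l). The members lay on 19 chromosomes, and 4 were X-linked (Rpl10, Rpl36a, Rpl39 and Rps4x). The filter on low counts kept 82 of them for testing and removed Rpl3l, Rpl6l, Rps12l1 and Rps3a3.

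The libraries were made from polyA RNA of pancreatic islets of 3 inbred, wild-type mouse strains: C57BL/6J, CAST/EiJ and NZO/HlLtJ. Females and males of each strain were fed a control diet with 10% fat and fiber, or a diet high in fat and sugar with 44% fat and fiber, from 6 weeks of age, and islets were collected at 16 weeks. This gave 12 groups and 45 libraries. The groups held 4 libraries each, except for 3 groups of 3: both NZO/HlLtJ male groups, and the CAST/EiJ males of the control diet. The series asks how genotype and diet interact in mouse models of type 2 diabetes. The labels do not say whether each library came from 1 mouse or from separate islet preparations, so the p-values measure the spread between libraries.

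Ribosomal proteins are made in near-equal numbers, since each ribosome holds 1 copy of nearly all of them, and surplus protein is degraded. Their mRNAs begin with a run of pyrimidines (the 5′ TOP motif), through which mTORC1 signalling controls how well they are translated. In pancreatic beta cells, translation is dominated by proinsulin. Most ribosomal protein genes also have retrotransposed copies in the mouse genome: single-exon copies of the spliced mRNA that can differ from the parent by a few bases or none.

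Library totals ranged from 57.2 M to 110.0 M counts, with a median of 84.4 M. The 2 insulin genes took 3.92% to 15.1% of the counts and the acinar (digestive enzyme) list 0.0603% to 35.6%, so the makeup of the tissue differed between libraries. Levels are given as CPM, counts relative to the library total scaled with TMM factors, which ranged from 0.486 to 1.18. The library with the lowest factor, CAST/EiJ female 10% fat replicate 4, also had the highest acinar share (35.6%). The 5 libraries with the highest medians over the full lists of markers of another strain were all on 44% fat. No cut-off was set in advance. CAST/EiJ female replicates 1, 2 and 4 held C57BL/6J markers at a median of 9.79%, 3.75% and 3.87% of the C57BL/6J level and NZO/HlLtJ markers at 3.66%, 2.85% and 1.89% of the NZO/HlLtJ level. Most of these markers are shared by both strains; over the few that are not (2 of C57BL/6J, 3 of NZO/HlLtJ) the medians were 9.79%, 0.995% and 3.88% for C57BL/6J and 0.188%, 1.85% and 0.170% for NZO/HlLtJ. C57BL/6J female replicate 2 held NZO/HlLtJ markers at 1.89%, and NZO/HlLtJ male replicate 3 held CAST/EiJ markers at 1.03%. Over markers absent from the third strain these were 1.86% and 0.493%. By such markers, libraries outside the 5 reached like levels of C57BL/6J. CAST/EiJ female 10% fat replicate 4 stood at 1.61%, CAST/EiJ male 10% fat replicate 3 at 1.65% and NZO/HlLtJ female 44% fat replicate 3 at 1.63%. In bulk tissue, fewer cells of a type and less RNA per cell cannot be told apart.

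Of the 86 members, 69 had at least 1 near-identical copy among the genes counted, 296 copies in all, and many of the largest strain differences turned on these. The coding sequences of the following pairs are shown because reads of either gene of a pair match the other over nearly all of the coding sequence. They were read from the GENCODE M21 transcripts of GRCm38. Rps12 (chr10:23785211-23787195, minus strand) and its copy Rps12-ps3 (chr19:59322290-59322783, plus strand) were identical over all 399 coding bases, of which the first 120 are printed once.
Rps12 and Rps12-ps3: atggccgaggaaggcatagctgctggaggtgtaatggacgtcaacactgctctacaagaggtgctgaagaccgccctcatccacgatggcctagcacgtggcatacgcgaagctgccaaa

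The other 3 pairs differed at 1 or 2 coding bases, which are in capitals within windows of 91 bases, with positions counted from 1 at the A of the start codon. Rpl19 (chr11:98026710-98030492, plus strand) and Rpl19-ps11 (chr8:19492906-19493623, plus strand) differed by G191A in 591 bases (window 146 to 236). Rpl9 (chr5:65388364-65391444, minus strand) and Rpl9-ps6 (chr19:32465885-32466575, minus strand) differed by G266A in 579 bases (window 221 to 311). Rps13 (chr7:116331505-116334195, minus strand) and Rps13-ps1 (chr8:87047689-87048226, plus strand) differed by T411C and A429G in 456 bases (window 366 to 456). In each token the member's base comes first and the copy's base last.
Rpl19: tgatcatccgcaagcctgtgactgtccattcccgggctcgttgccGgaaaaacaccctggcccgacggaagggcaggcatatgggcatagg
Rpl19-ps11: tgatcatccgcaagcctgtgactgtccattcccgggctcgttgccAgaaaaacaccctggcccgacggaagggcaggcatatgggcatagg
Rpl9: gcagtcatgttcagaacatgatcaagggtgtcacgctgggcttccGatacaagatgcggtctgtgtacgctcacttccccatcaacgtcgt
Rpl9-ps6: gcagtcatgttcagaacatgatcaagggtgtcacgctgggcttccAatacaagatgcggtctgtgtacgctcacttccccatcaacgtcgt
Rps13: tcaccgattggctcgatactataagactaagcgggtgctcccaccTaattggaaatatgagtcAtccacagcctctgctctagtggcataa
Rps13-ps1: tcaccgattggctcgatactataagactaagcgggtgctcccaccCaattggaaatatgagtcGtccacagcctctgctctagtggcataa

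The members were abundant in islets. Over all libraries, 54 members had a median above 100 CPM, 25 lay between 10 and 100 CPM, 2 between 1 and 10 CPM and 5 below 1 CPM, while 1430 of all genes lay above 100 CPM. Per library, the members together took 1.06% to 2.10% of all counts, with a median of 1.42%. Per kilobase of coding sequence in the 8 C57BL/6J libraries on 10% fat, the median member stood at 350.5 CPM per kb alone (quartiles 200.8 and 452.1) and at 401.0 CPM per kb with its copies added (quartiles 283.0 and 509.0), over 81 genes with a coding length.

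With copies added, the highest level per coding length was that of Rpl41, a peptide gene with only 78 coding bases. It stood at 3932 ± 629 CPM per kb with its copies (SD, n = 8) and 468.7 ± 38.4 CPM per kb alone. Counted alone, Rps29 was highest at 784.8 ± 85.0 CPM per kb. The count of each gene was divided by its coding length only, without the untranslated ends. Rpl10, an X-linked gene of the large subunit, stood at 936.7 ± 98.7 CPM per kb with its copies and at 112.3 ± 11.2 CPM per kb alone, since most of its counts were assigned to Rpl10-ps3 in all 3 strains. The duplicates were among the lowest. Rpl7l1, a duplicate of Rpl7, reached 53.2 ± 5.05 CPM per kb, Rps27l 100.4 ± 21.1 CPM per kb, and the muscle gene Rpl3l 0.000962 CPM per kb. Rpl10l and Rpl39l, which are best known from the male germ line, were not analysed here.

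The members rose together on 44% fat in NZO/HlLtJ islets. Averaged over the sexes, 64 of 82 members were higher on 44% fat and none was lower in edgeR's quasi-likelihood test (Benjamini-Hochberg adjusted p under 0.05, over all genes), where 34.2% of all 20306 genes tested were called, 17.3% higher and 16.9% lower. The median log2 fold change of the 82 members was 0.30, and that of all genes tested was -0.02. Both subunits took part: 26 of 31 small-subunit genes (median 0.34) and 36 of 46 large-subunit genes (median 0.28) were called, with 2 of the 5 duplicates tested (Rps27l and Rps4l). The sign was higher for 81 of 82 members, and 74 had an unadjusted p under 0.05. Of all 20306 genes, 9721 had a higher sign and 8767 an unadjusted p under 0.05. The 18 members that were not called included Rpl10, Rps2, Rps12 and Rpl22l1.

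The share of all counts taken by the 86 members shows the same 14 libraries without any model. In NZO/HlLtJ females it was 1.51%, 1.47%, 1.64% and 1.49% on 10% fat and 1.53%, 1.60%, 1.60% and 1.75% on 44% fat. In NZO/HlLtJ males it was 1.37%, 1.56% and 1.98% on 10% fat and 1.84%, 1.92% and 2.10% on 44% fat. The diets overlapped in both sexes, in males because replicate 3 on 10% fat lay above 2 of the 3 libraries on 44% fat. With insulin and acinar genes taken out of the total, the group means were 1.80% ± 0.0696 and 2.02% ± 0.191 (SD, n = 4) in females on 10% and 44% fat, and 2.02% ± 0.431 and 2.50% ± 0.259 (SD, n = 3) in males.

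**Figure D1:**
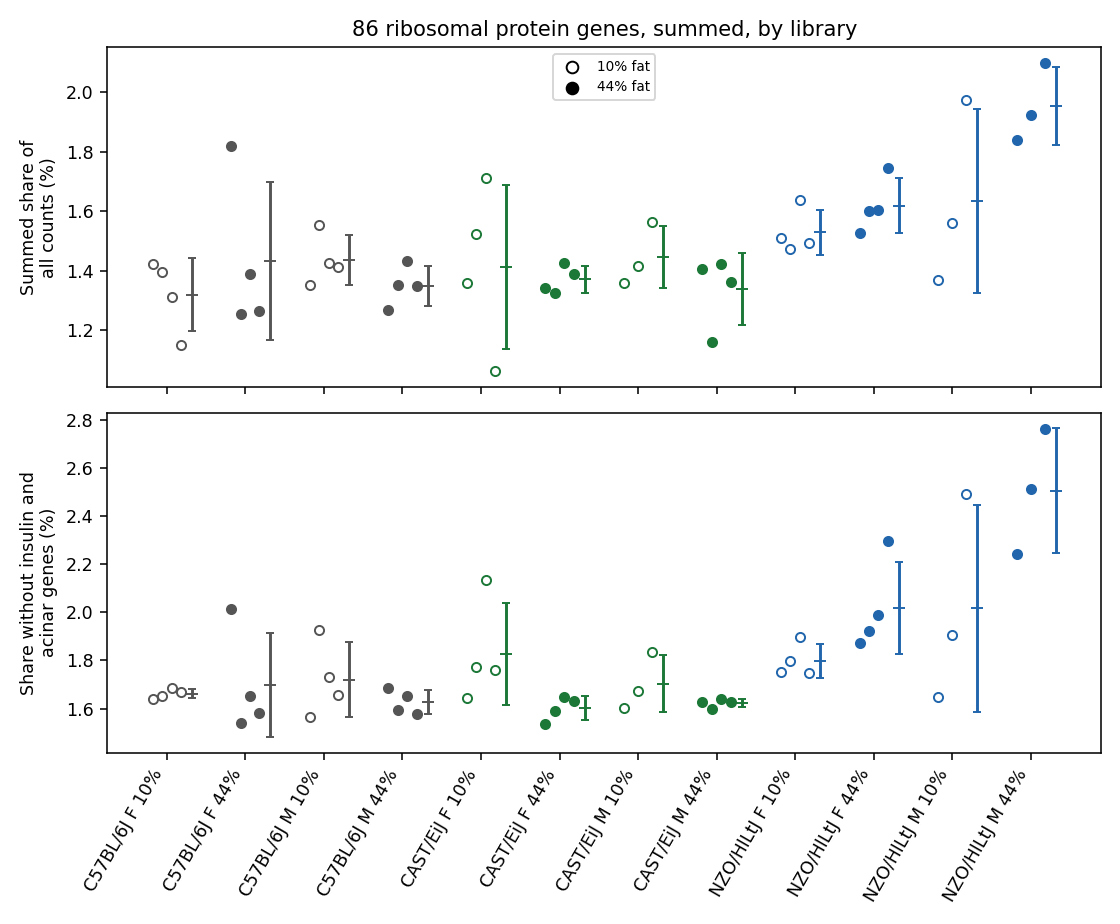
Summed share of all counts (percent, top) and share with insulin and acinar genes left out (percent, bottom) of the 86 ribosomal protein genes in each of 45 libraries. Points are libraries (open, 10% fat; filled, 44% fat; F female, M male), the short bar is the group mean and the whisker 1 SD; the NZO/HlLtJ males on 44% fat lie between 1.84% and 2.10% of all counts, and 1 of 3 NZO/HlLtJ males on 10% fat lies among them at 1.98%.

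Rps27l showed the largest called rise. It is a duplicate of Rps27 and a known target of p53. In females it stood at 29.1, 31.8, 26.2 and 32.7 CPM on 10% fat and at 41.9, 59.6, 48.5 and 51.7 CPM on 44% fat. In males it stood at 31.0, 37.7 and 54.4 CPM on 10% fat and at 52.5, 55.7 and 59.3 CPM on 44% fat. The female libraries did not overlap, and the male groups met at replicate 3 on 10% fat. The log2 fold change over both sexes was 0.60 (SE 0.15, edgeR adjusted p = 0.00254), and it stayed past the threshold in all 14 fits that each left out 1 NZO/HlLtJ library. Its parent Rps27 had a log2 fold change of 0.21 (edgeR adjusted p = 0.0659); the difference between the pair was not tested.

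Rplp0, the base of the ribosomal stalk on which translation factors act, was the most abundant of the genes that rose most. Its female libraries lay at 529.9, 545.7, 505.8 and 538.8 CPM on 10% fat and at 667.1, 914.3, 843.0 and 900.0 CPM on 44% fat. Its male libraries lay at 585.6, 630.3 and 1060 CPM on 10% fat and at 793.9, 977.4 and 966.9 CPM on 44% fat. The highest of all 14 values was thus a male on 10% fat, replicate 3. The log2 fold change was 0.46 (SE 0.13, edgeR adjusted p = 0.00543). The 2 other stalk proteins, which sit on Rplp0 as dimers, were also higher: Rplp1 by 0.38 (SE 0.12, edgeR adjusted p = 0.0104) and Rplp2 by 0.31 (SE 0.10, edgeR adjusted p = 0.0163).

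Among the core subunit genes, Rps26 lay at 95.8, 114.9, 105.3 and 106.6 CPM in females on 10% fat and at 114.7, 155.9, 143.0 and 166.8 CPM on 44% fat. In males it lay at 99.7, 110.2 and 171.8 CPM on 10% fat and at 145.8, 180.4 and 194.5 CPM on 44% fat. The female groups met at 1 library each, and in males replicate 3 on 10% fat again lay among the libraries on 44% fat. The log2 fold change of Rps26 was 0.45 (SE 0.12, edgeR adjusted p = 0.0026). Rps20 lay at 93.3 to 109.5 CPM against 115.5 to 158.9 CPM in females, with no overlap, and at 100.8, 112.5 and 165.1 CPM against 154.4, 175.4 and 180.7 CPM in males. Its log2 fold change was 0.44 (SE 0.10, edgeR adjusted p = 0.000495), and Rps19 had 0.44 as well. Rps19 and Rps26 are mutated in Diamond-Blackfan anaemia, an inherited failure of red cell formation. Rps6, the substrate of the S6 kinases downstream of mTORC1, was near the middle of the list at 0.28 (SE 0.10, edgeR adjusted p = 0.0309).

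**Figure D2:**
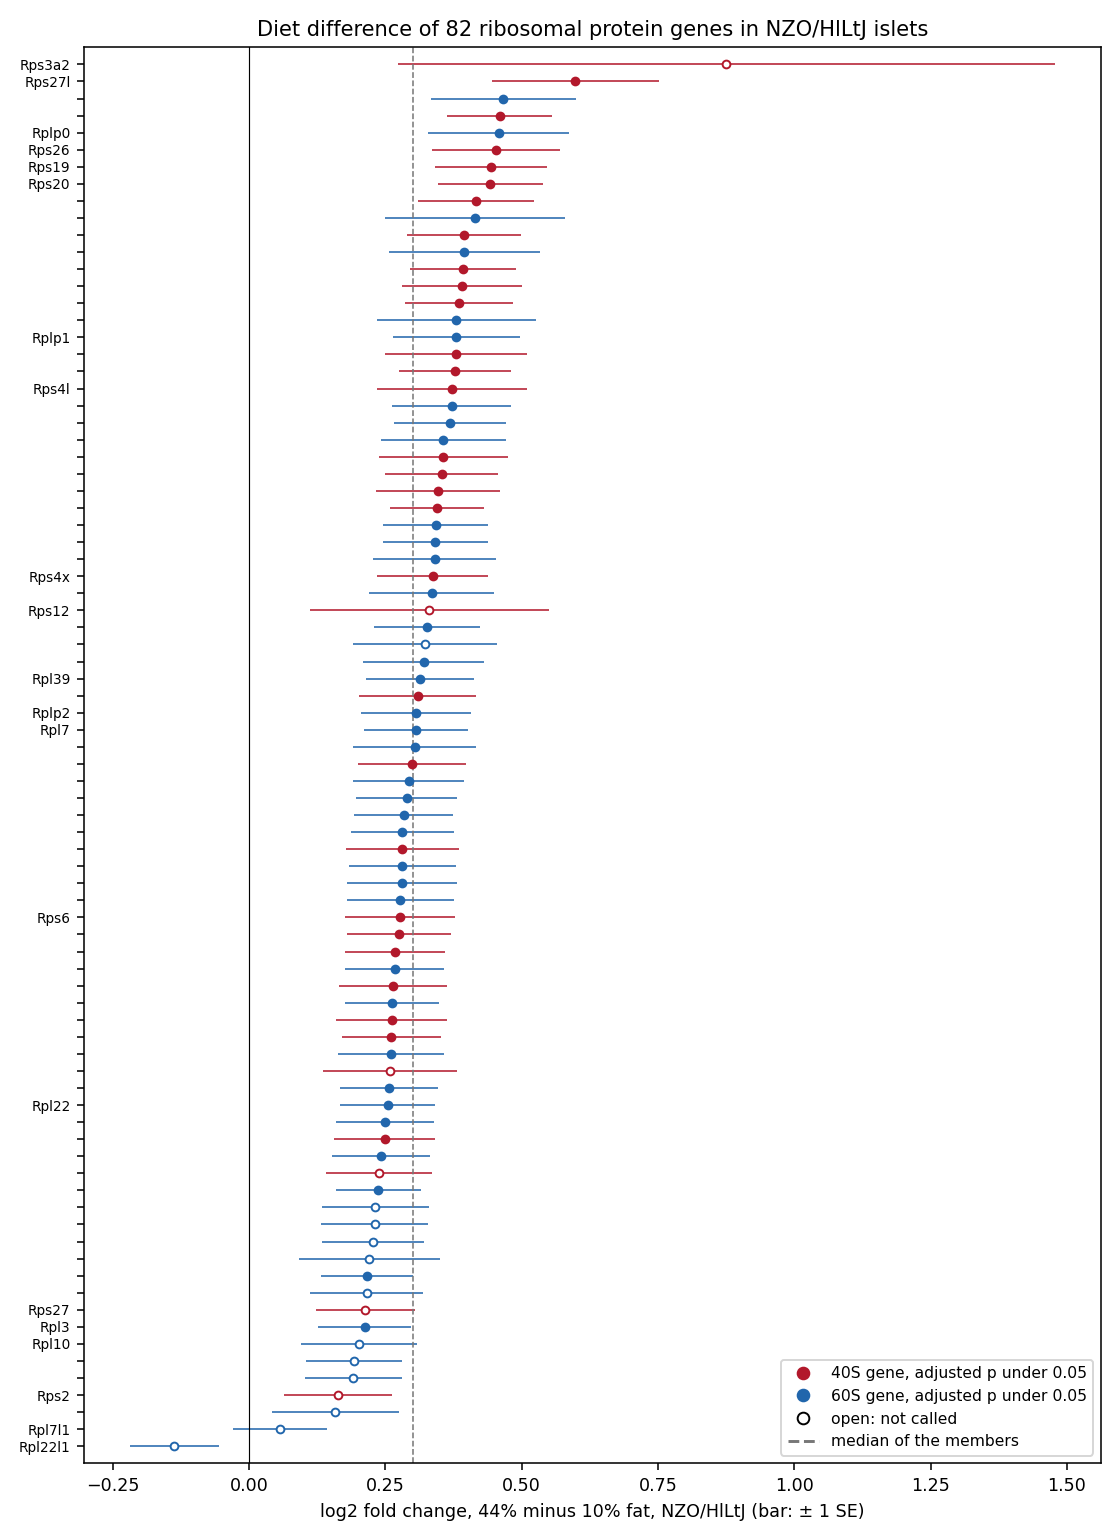
Log2 fold change (44% minus 10% fat, mean over the sexes) of the 82 tested ribosomal protein genes in NZO/HlLtJ islets, sorted by size, with names for 21 members described in the text. Points are edgeR estimates (red, 40S; blue, 60S; filled, adjusted p under 0.05; open, not called), bars are 1 SE, and the dashed line is the members' median of 0.30; Rpl22l1 alone has a negative estimate.

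The number of calls depended on the scaling and on single libraries. With library totals in place of TMM factors, 7 members were called (among them Rplp0, Rps19, Rps20, Rps26 and Rps27l), the median of all genes moved to -0.15 and that of the members to 0.17. The distance between both medians was 0.32 under either scaling and ranged from 0.26 to 0.34 over the 11 settings tried. With the acinar score as a covariate 31 members were called, and without the 5 libraries that held transcripts of another strain 19. Of all 20306 genes, 4629 were called with library totals (2083 higher) and 6060 with the acinar score (3126 higher). Without the 5 libraries 5127 of 21181 genes were called (2476 higher). Counting higher and lower calls together, the share of members called was thus no longer above that of all genes with library totals or without the 5 libraries. All members called in these 2 settings were also called, as higher, with all libraries and TMM factors. Set against the genes called higher alone, the share of members was above that of all genes without the 5 libraries, but not with library totals. Leaving out NZO/HlLtJ male 10% fat replicate 1 gave 17 calls, replicate 2 of that group 26 and replicate 3 gave 76. Leaving out male 44% fat replicate 2 gave 42 calls, male 44% fat replicate 3 gave 28 and female 44% fat replicate 4 gave 40.

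**Figure D3:**
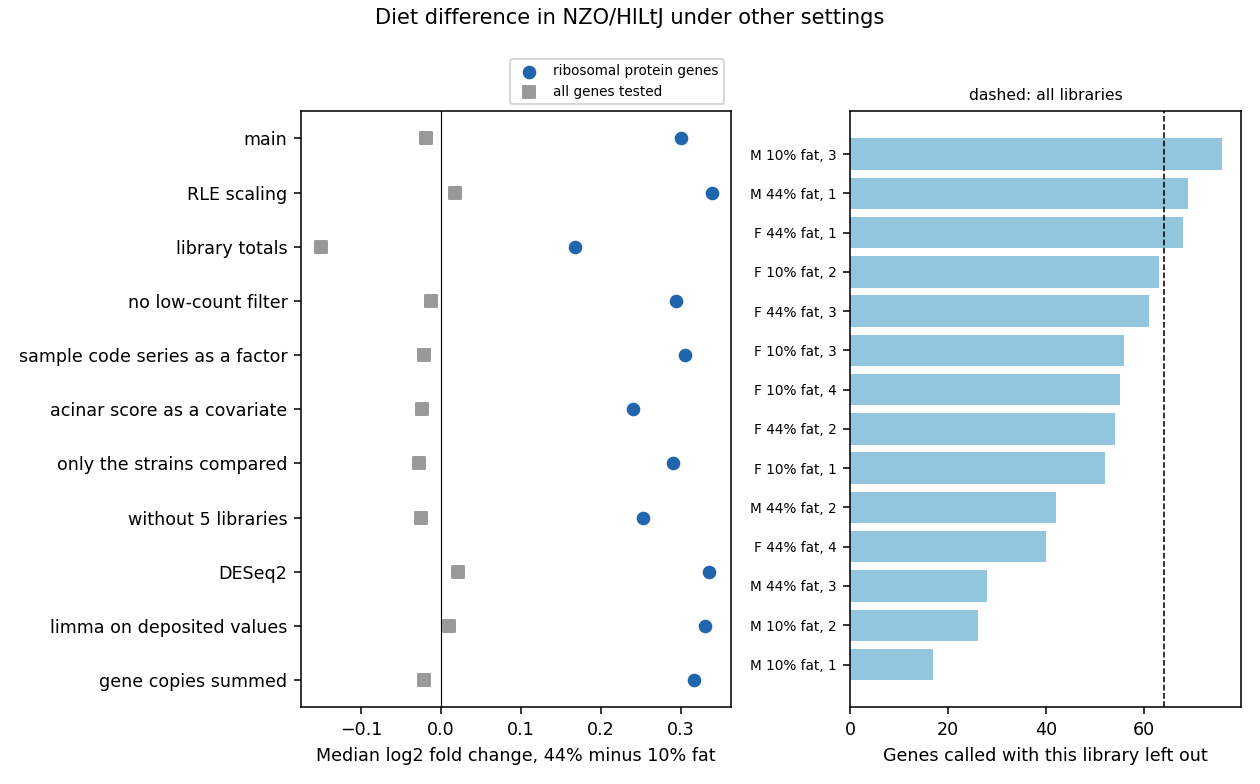
Left: median log2 fold change (44% minus 10% fat, NZO/HlLtJ) of the ribosomal protein genes (circles) and of all genes tested (squares) under each setting, from 0.17 to 0.34 for the members. Right: number of members called when 1 NZO/HlLtJ library is left out (M male, F female, then fat content and replicate), from 17 to 76, with a dashed line at the 64 calls made with all libraries.

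Other cell types moved with diet in the same libraries. In NZO/HlLtJ on 44% fat, 10 of 10 macrophage markers, 10 of 10 fibroblast markers and 10 of 10 markers of dividing cells were called higher (median log2 fold changes 1.89, 1.30 and 1.46). Of the lymphocyte markers 8 of 10 were called higher, of the duct markers 6 of 8, of the endothelial markers 4 of 8 and of the acinar markers 2 of 24 (median 1.12). Of the beta cell markers 8 of 12 were lower (median -0.60). Of the alpha cell markers 1 of 7 was higher and 2 were lower, and of the delta and gamma cell markers 1 of 5 was higher and 1 lower. The summed macrophage level was 72.8 to 78.7 CPM in females on 10% fat and 188.2 to 270.3 CPM on 44% fat, and in males 102.9, 182.4 and 323.2 CPM against 618.6, 689.5 and 1086 CPM. The male on 10% fat with the highest share of ribosomal protein counts, replicate 3, also had the highest sums of its group for macrophages (323.2 CPM), fibroblasts (1684 CPM), lymphocytes, dividing cells, duct, acinar, alpha and beta cells (191500 CPM, against 142600 and 160700 CPM) and the highest insulin share (14.2%). Their part in the rise of the ribosomal protein genes was not tested. The sample codes in the labels fall into 3 series, whose meaning is not stated, and these were spread unevenly over the NZO/HlLtJ groups. Series 80 was absent from the females on 44% fat and the males on 10% fat, and series 89 from the other 2 groups. With code series as a factor, 67 members were called.

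Each sex alone gave fewer calls at a like size of change. In NZO/HlLtJ females 12 members were higher (median log2 fold change 0.28), where 15.8% of all genes were called, 8.33% higher and 7.42% lower. Rps27l (0.75, SE 0.20), Rplp0 (0.65, SE 0.17), Rplp1 (0.51), Rps29 (0.51), Rps26 (0.46) and Rps20 (0.45) led, with edgeR adjusted p-values of 0.00744 to 0.0361. The call of Rps26 was lost in 6 of 8 fits that each left out 1 of these female libraries. That of Rplp1 was lost in 3 and that of Rps20 in 1, while Rps27l, Rplp0 and Rps29 kept theirs in all 8. For 37 members all 4 female libraries on 44% fat lay above all 4 on 10% fat, against 8.79% of all genes. In NZO/HlLtJ males 16 members were higher and Rpl22l1 was lower (median 0.31), where 29.3% of all genes were called, 14.9% higher and 14.4% lower. Rps19 (0.51), Rps24 (0.50) and Rpl12 (0.47) were among the largest changes.

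The male result rested on few libraries. It gave 0 calls without male 10% fat replicate 2 or without male 44% fat replicate 3, 1 call without male 10% fat replicate 1, 7 without male 44% fat replicate 2, 30 without male 44% fat replicate 1 and 71 without male 10% fat replicate 3. In males 1 member had all 44% fat libraries above the 10% fat libraries (20% of all genes), and Rpl22l1 had them all below (16.5% of all genes). No member separated the diets over both sexes at once (0.478% of all genes did, in the upward direction).

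Rpl22l1 ran against the rest. It encodes a paralog of Rpl22, and the 2 proteins are known to regulate each other's expression. In NZO/HlLtJ males Rpl22l1 lay at 50.5, 60.8 and 52.8 CPM on 10% fat and at 43.2, 40.3 and 39.5 CPM on 44% fat, with no overlap. Rpl22 lay at 56.0, 69.1 and 83.7 CPM on 10% fat and at 79.2, 92.1 and 95.1 CPM on 44% fat in the same libraries. Rpl22l1 fell by 0.42 on the log2 scale (SE 0.12, edgeR adjusted p = 0.00967) and Rpl22 rose by 0.35 (SE 0.13, edgeR adjusted p = 0.0399).

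In NZO/HlLtJ females Rpl22l1 lay at 50.3, 47.6, 46.0 and 40.1 CPM on 10% fat and at 50.4, 52.0, 47.0 and 53.6 CPM on 44% fat, a log2 difference of 0.14 (edgeR adjusted p = 0.388). The difference of the diet effect between males and females was -0.56 for Rpl22l1 (SE 0.16, edgeR adjusted p = 0.0255). It was the only member called in that comparison, where 9.26% of all genes were called, 4.08% higher and 5.18% lower. The call was lost without NZO/HlLtJ male 44% fat replicate 3 (edgeR adjusted p = 0.108), without male 10% fat replicate 2 and without female 44% fat replicate 2, and with code series as a factor (edgeR adjusted p = 0.115).

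The other duplicates did not all follow Rps27l. Rpl7l1 had a log2 fold change of 0.06 on 44% fat in NZO/HlLtJ over both sexes (SE 0.09, edgeR adjusted p = 0.66), while its parent Rpl7 rose by 0.31 (edgeR adjusted p = 0.0119). Rps4l, which the annotation lists as a transcribed processed pseudogene of the X-linked Rps4x, rose by 0.37 (edgeR adjusted p = 0.0332), and Rps4x by 0.34 (edgeR adjusted p = 0.0092). Rps3a2, at under 1 CPM in 13 of 14 NZO/HlLtJ libraries, had a log2 fold change of 0.88 with an SE of 0.60 (edgeR adjusted p = 0.277). Rpl3, the parent of Rpl3l, rose by 0.21 (edgeR adjusted p = 0.0491) and Rpl39 by 0.31 (edgeR adjusted p = 0.0121), while Rpl10 had 0.20 (edgeR adjusted p = 0.145).

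The diet effect differed between strains. In NZO/HlLtJ compared with C57BL/6J, the diet effect of 36 members was higher and that of none was lower (median difference 0.38 on the log2 scale), where 17.4% of all genes were called, 8.87% higher and 8.57% lower. In NZO/HlLtJ compared with CAST/EiJ, 73 members were higher and none lower (median difference 0.49), where 25% of all genes were called, 12.4% higher and 12.5% lower. These comparisons share the NZO/HlLtJ libraries. The diet effect on Rps27l differed by 0.60 from C57BL/6J (SE 0.21, edgeR adjusted p = 0.0433) and by 0.89 from CAST/EiJ (SE 0.21, edgeR adjusted p = 0.00253). The Rps27l call against C57BL/6J was lost in 20 of 30 fits that each left out 1 library. That against CAST/EiJ was lost in 0 of 29. Other members with large differences were Rplp0 (0.56), Rps16 (0.52) and Rps26 (0.52) against C57BL/6J, and Rplp0 (0.71), Rplp1 (0.71), Rps14 (0.68) and Rps29 (0.68) against CAST/EiJ.

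These counts moved with the settings. Against C57BL/6J they were 0 with library totals, 5 with the acinar score, 1 without the 5 libraries with transcripts of another strain, 57 with DESeq2 and 4 without NZO/HlLtJ male 10% fat replicate 1. Against CAST/EiJ they were 4 with library totals and 6 without the 5 libraries, 3 of which are CAST/EiJ females. With library totals the median of all genes lay at -0.24 in the first and at -0.23 in the second of these comparisons, against -0.03 and -0.01 with TMM factors. Of all 20306 genes, 1316 and 2443 were called in them with library totals. With the acinar score 2471 genes were called against C57BL/6J, and with DESeq2 4225 of 17929. Without the 5 libraries the share of members called against C57BL/6J was below that of all genes.

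In C57BL/6J islets no member was called between the diets over both sexes, in females or in males by edgeR, where 0.0246%, 0.0% and 0.00492% of all genes were called. Over both sexes the members' median was -0.07 and DESeq2 called 0. By edgeR 1 member had an unadjusted p under 0.05, as did 637 of all 20306 genes. Rplp0 lay at 444.1 to 650.9 CPM in C57BL/6J females on 10% fat and at 459.0 to 529.1 CPM on 44% fat, and in males at 454.0 to 532.0 CPM and 440.2 to 531.4 CPM. The groups overlapped in both sexes. Rps27l lay between 21.6 and 37.0 CPM in all 16 libraries of the strain, below every NZO/HlLtJ library on 44% fat.

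In CAST/EiJ islets the members leaned lower on 44% fat. Over both sexes none was called (0.0295% of all genes were), and the median was -0.20. An unadjusted p under 0.05 was found for 38 members and for 1519 of all 20306 genes. DESeq2 also called 0. In females the median was -0.39, and 75 of 82 members had an unadjusted p under 0.05. The like count over all genes is not reported here. In this comparison 1 member was called, Rplp1, where 0.231% of all genes were called, 0.217% higher and 0.0148% lower. Rplp1 lay at 260.7, 246.9, 405.8 and 484.2 CPM on 10% fat and at 202.2, 223.0, 235.8 and 211.2 CPM on 44% fat, so the groups did not overlap (log2 fold change -0.68, SE 0.15, edgeR adjusted p = 0.0346). For 46 members all female libraries on 44% fat lay below all on 10% fat, against 1.55% of all genes.

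This pattern in CAST/EiJ females moved with the libraries that stand apart. Replicate 4 on 10% fat, with the acinar share of 35.6% and a TMM factor of 0.486, had the highest scaled level of the group for Rplp1 and Rplp0 but the lowest share of all counts over the members (1.06%). Without it the median was -0.25, no member was called and Rplp1 had an edgeR adjusted p of 0.407. With library totals the median was -0.05, and that of all genes lay at 0.30, against 0.02 with TMM factors. Without the 5 libraries with transcripts of another strain, which leaves 1 female on 44% fat that is assumed to vary like the other groups, the median was -0.30 and no member was called. No call was made without female 44% fat replicates 1, 2 or 4 or 10% fat replicate 3, while 29 members were lower without 10% fat replicate 2, 4 without replicate 1, and 13 with DESeq2. In CAST/EiJ males no member was called or had an unadjusted p under 0.05 (median 0.01; 0.0% of all genes were called).

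For no member was the diet effect called different between CAST/EiJ and C57BL/6J by edgeR (2 members had an unadjusted p under 0.05; 0.0148% of all genes were called). Between males and females on 10% fat, averaged over strains, no member was called by edgeR either (median -0.07; 0.852% of all genes were called, 0.246% higher and 0.606% lower). Rps2 alone had an unadjusted p under 0.05 (log2 difference -0.17, edgeR adjusted p = 0.395). The X-linked members lay at -0.13 (Rpl10, edgeR adjusted p = 0.579), -0.08 (Rpl36a, 0.752), -0.08 (Rps4x, 0.765) and -0.05 (Rpl39, 0.876). Rps4x has a Y-linked partner in humans, which mice lack.

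Many of the largest strain differences were in members with near-identical copies, which 69 of the 86 members had. Between CAST/EiJ and C57BL/6J on 10% fat 30 members were called, 19 higher and 11 lower in CAST/EiJ, where 46.9% of all genes were called, 23.8% higher and 23.2% lower. The share of members called was thus below that of all genes. Of the 30, 12 differed by more than 1 on the log2 scale, and how many of all genes did so was not counted. Rps12, a protein of the small subunit head, had a median of 5.51 CPM in C57BL/6J, 112.0 CPM in CAST/EiJ and 8.64 CPM in NZO/HlLtJ. Its copy Rps12-ps3, identical over the coding sequence printed above, had medians of 115.7, 2.26 and 155.9 CPM in the same order. The sums of Rps12 with its copies were 120.9, 113.9 and 165.4 CPM, so the gene held most of the sum in CAST/EiJ and the copy most of it in both other strains.

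Rpl19 and Rpl9 showed the same mirror. Rpl19 had strain medians of 26.5, 298.8 and 32.2 CPM (C57BL/6J, CAST/EiJ, NZO/HlLtJ), and Rpl19-ps11, which differs by G191A, 267.1, 0.487 and 302.5 CPM. Rpl9 had 14.5, 241.3 and 14.4 CPM, and Rpl9-ps6, which differs by G266A, 217.7, 0.206 and 238.4 CPM. Rps13 and Rpl29 showed the reverse. Rps13 had 116.9, 15.4 and 141.4 CPM and Rps13-ps1 0.776, 97.0 and 0.608 CPM. Rpl29 had 107.3, 15.3 and 126.1 CPM and its copy Gm10709 0.0409, 67.9 and 0.0352 CPM. The ranges of CAST/EiJ and C57BL/6J libraries did not overlap for any of these 5 members.

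**Figure D4:**
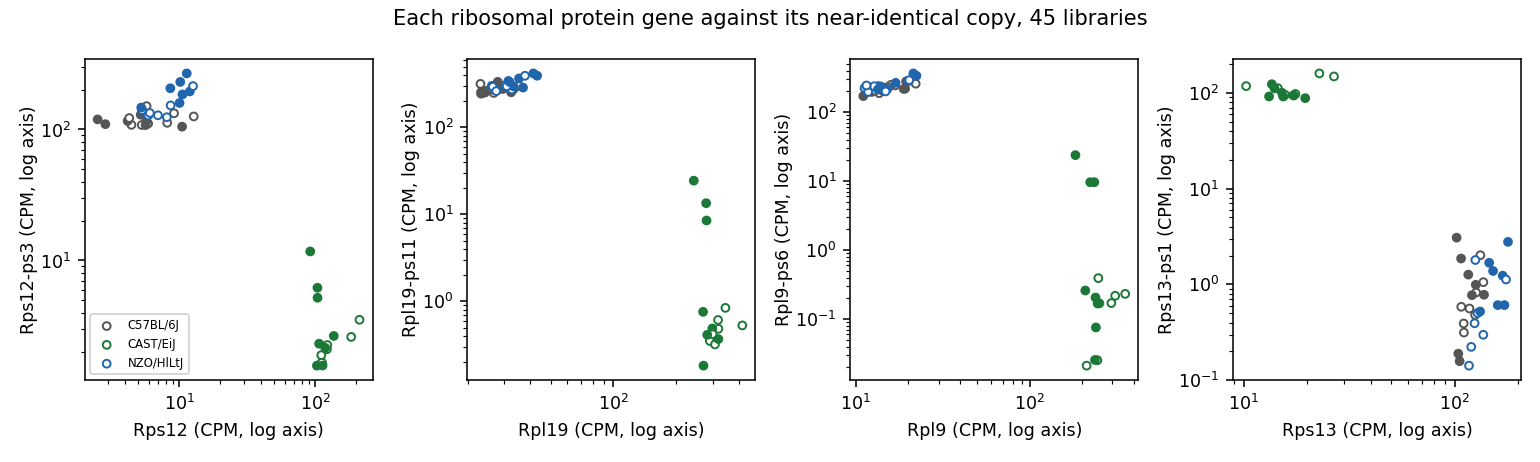
Level of Rps12, Rpl19, Rpl9 and Rps13 (horizontal, CPM, log axis) against that of their leading copies (vertical, CPM, log axis) in each of 45 libraries (grey C57BL/6J, green CAST/EiJ, blue NZO/HlLtJ; open 10% fat, filled 44% fat). CAST/EiJ libraries lie apart from those of both other strains in each panel, and for the first 3 pairs the CAST/EiJ libraries with the most copy counts are 3 females on 44% fat.

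The CAST/EiJ libraries that held markers of another strain also held more of these copies, which are abundant in both C57BL/6J and NZO/HlLtJ. CAST/EiJ female 44% fat replicates 1, 2 and 4 had 24.4, 13.4 and 8.49 CPM of Rpl19-ps11, 23.8, 9.65 and 9.65 CPM of Rpl9-ps6 and 11.7, 6.19 and 5.19 CPM of Rps12-ps3. The CAST/EiJ medians of these copies were 0.487, 0.206 and 2.26 CPM. These libraries were not part of the strain comparison, which used 10% fat only.

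Adding the counts of the copies to their member, a setting chosen after the data were seen, took most of the large differences away. Between CAST/EiJ and C57BL/6J it left 15 calls, 7 higher and 8 lower, 3 of them above 1 on the log2 scale. All 15 were among the 30 called before, and 13 kept their direction. Rpl17 went from 4.96 to 0.03 (edgeR adjusted p = 0.858 when summed), Rps12 from 4.26 to 0.08 (0.544), Rpl9 from 4.12 to 0.17 (0.17), Rpl19 from 3.59 to 0.11 (0.258) and Rpl27 from 3.54 to 0.01 (0.958). Rps13 went from -2.80 to 0.09 (0.398) and Rpl29 from -2.68 to -0.14 (0.253), while Rpl21 went from -0.73 to -0.14 (0.233) and Rpl37 from -0.70 to 0.19 (0.15). Rpl5 (1.36 to -0.29) and Rpl7 (0.45 to -0.22) were the 2 called in both ways with opposite signs, and are named for that. No source used here says how the authors' counting assigned reads that match both genes, so for a member with such a copy the deposited count is uncertain.

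**Figure D5:**
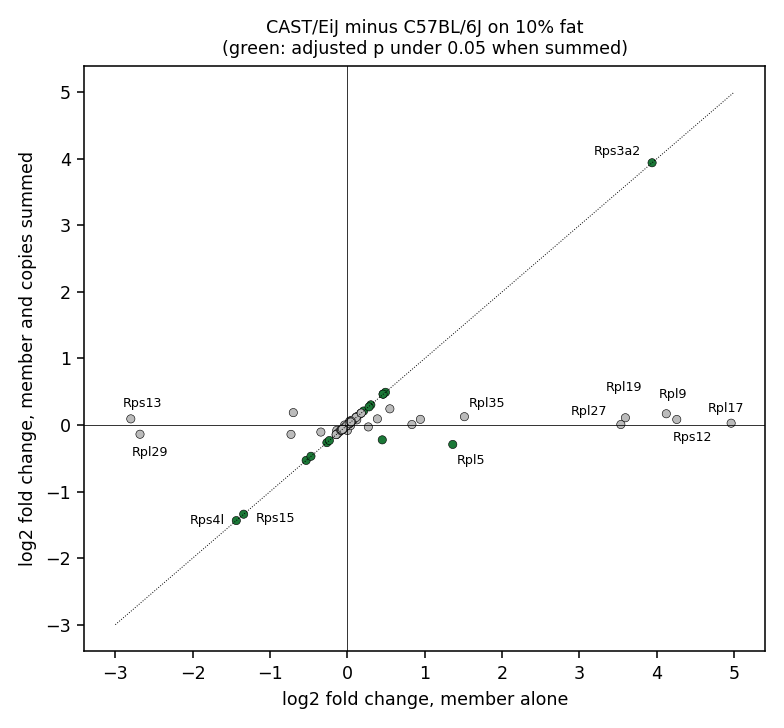
Log2 fold change between CAST/EiJ and C57BL/6J on 10% fat for each ribosomal protein gene counted alone (horizontal) and with its copies summed (vertical); the dotted line marks equal values and green marks an adjusted p under 0.05 when summed. Rpl17, Rps12, Rpl9, Rpl19, Rpl27, Rps13 and Rpl29 lie near zero when summed. Rps3a2, Rps4l and Rps15 do not, but summing did not join Rps3a2 to Rps3a1 and left the C57BL/6J level of Rps15 unchanged.

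Some strain differences lay in members that summing left nearly unchanged, so it was no check on them. Copies that are members themselves, such as Rps3a2 beside Rps3a1, were not summed. Rps15 stood at 458.2 CPM per kb of coding sequence in C57BL/6J on 10% fat, both alone and with copies. Rps15, a protein of the small subunit head, lay at 173.0 to 247.1 CPM in C57BL/6J, 60.9 to 102.7 CPM in CAST/EiJ and 191.3 to 334.6 CPM in NZO/HlLtJ over both diets. CAST/EiJ lay below both other strains in every library, and the difference from C57BL/6J on 10% fat was -1.34 (SE 0.09, edgeR adjusted p = 4.44e-15). The 3 near-identical copies of Rps15 in the annotation were not analysed here. Rps4l lay at 32.5 to 48.9 CPM in C57BL/6J, 8.29 to 18 CPM in CAST/EiJ and 14 to 32.1 CPM in NZO/HlLtJ, a difference of -1.44 for CAST/EiJ (SE 0.14, edgeR adjusted p = 2.17e-11) and of -1.11 for NZO/HlLtJ (SE 0.14, edgeR adjusted p = 1.68e-08) from C57BL/6J. Smaller differences of CAST/EiJ from C57BL/6J were -0.47 for Rps9, 0.46 for Rplp1 and 0.46 for Rps19, of which Rps9 and Rps19 were chosen after their values were seen. Rps3a2, itself a near-identical copy of Rps3a1, stood at 4.01 CPM in CAST/EiJ and 0.257 CPM in C57BL/6J on 10% fat, a difference of 3.94 (SE 0.54, edgeR adjusted p = 1.1e-07).

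Between NZO/HlLtJ and CAST/EiJ 32 members were called, 19 higher and 13 lower in NZO/HlLtJ (53.5% of all genes were called, 27.1% higher and 26.3% lower), and 20 with copies summed, 18 higher and 2 lower. Among the largest differences were those of Rpl17 (-5.34 alone, 0.16 summed), Rpl9 (-4.33, -0.14), Rps12 (-4.11, 0.19), Rpl19 (-3.41, 0.046), Rpl27 (-2.82, 0.29), Rps13 (2.94, 0.046) and Rpl29 (2.77, 0.23), beside Rps3a2 (-4.80) and Rps15 (1.55). The values of Rps3a2 and Rps15 were the same with copies summed, a setting that could not test them. Between NZO/HlLtJ and C57BL/6J 22 members were called, 18 higher and 4 lower (42.1% of all genes, 22.2% higher and 19.9% lower), and 18 with copies summed. The members lower in NZO/HlLtJ than in C57BL/6J were Rps4l, Rpl21 (-0.56), Rpl5 (-0.44) and Rpl17 (-0.38). Of these Rpl21 (-0.10), Rpl5 (-0.19) and Rpl17 (0.19) were not called with copies summed. Among the members higher in NZO/HlLtJ were Rpl27 by 0.72 (0.30 with copies), Rps27l by 0.47, Rplp1 by 0.43, Rpl7l1 by 0.31, Rpl18 by 0.31 and Rps29 by 0.30. This comparison gave 50 calls without NZO/HlLtJ male 10% fat replicate 1, 34 without replicate 2 and 9 without replicate 3, and that between NZO/HlLtJ and CAST/EiJ gave 53 without replicate 1.

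Relative to the mean of all members, the members differed in how steady their level was over the 12 groups. The SD of the log2 relative level over the group means was 0.044 for Rpl3, 0.05 for Rpl13a, 0.052 for Rpl36, 0.072 for Rpl15 and 0.085 for Rpl14, the lowest 5 for the members counted alone. With copies summed these were 0.12, 0.156, 0.134, 0.082 and 0.05, and the lowest were Rps15a (0.027) and Rps10 (0.032). Summing also changed the mean of all members, to which each level is relative. In the libraries used above for levels per coding length, Rpl3 stood at 350.5 CPM per kb alone and 350.8 CPM per kb with copies. Rpl13a stood at 597.4 and 597.5 CPM per kb. The low SDs of members counted alone thus depend on the reference mean and do not by themselves show a steady level. For the members alone the SD was 2.41 for Rpl17, 1.98 for Rps12, 1.95 for Rpl9, 1.62 for Rpl19 and 1.48 for Rps13, all of which have the copies described above. With copies summed, the most variable members included Rps3a2 (1.38), Rps4l (0.672), Rps15 (0.672) and Rps27l (0.235), and the SDs of Rpl17, Rps12, Rpl9, Rpl19 and Rps13 were 0.049, 0.112, 0.139, 0.081 and 0.059.

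The promoters of 3 members are shown because these genes had the leading diet effects in NZO/HlLtJ, including the one in the opposite direction. Each run holds 120 bases before and 30 after the RefSeq start on GRCm38.p6, on the plus strand, with matches to the motifs named in the next paragraph in capitals.
Rplp0, chr5:115559347-115559496: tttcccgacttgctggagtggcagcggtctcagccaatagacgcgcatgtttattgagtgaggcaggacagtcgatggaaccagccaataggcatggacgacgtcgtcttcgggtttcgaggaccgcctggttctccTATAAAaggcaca
Rps27l, chr9:66945966-66946115: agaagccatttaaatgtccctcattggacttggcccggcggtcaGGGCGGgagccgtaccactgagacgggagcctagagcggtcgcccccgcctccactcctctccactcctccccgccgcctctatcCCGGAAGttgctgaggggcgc
Rpl22l1, chr3:28805388-28805537: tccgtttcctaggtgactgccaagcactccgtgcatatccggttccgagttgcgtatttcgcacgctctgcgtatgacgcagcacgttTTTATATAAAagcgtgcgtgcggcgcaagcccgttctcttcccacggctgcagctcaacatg

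Motifs were searched on both strands in the 300-base RefSeq windows of 61 of the 86 members and of 27025 symbols in all. CCGGAAG, the core bound by ETS factors, was in 41.0% of the members' windows and 9.93% of all. GGGCGG, a GC box, was in 62.3% and 38.2%, AAGATGGC, the core bound by YY1, in 9.8% and 3.19%, and TATAAA in 11.5% and 15.67%. CTTTCC, a pyrimidine run like that of TOP mRNAs, was searched on the given strand from 10 bases before to 20 after the start, and was in 14.8% and 1.52%. The median diet effect in NZO/HlLtJ was 0.28 for 25 members with CCGGAAG and 0.32 for 35 tested members without it. In the printed runs, Rps27l held CCGGAAG and GGGCGG, and Rplp0 held TATAAA only after the start, from base 18 on. Rpl22l1 held TATAAA at overlapping places on both strands, which began 32 and 28 bases before the start.

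The other genes of ribosome making and translation had medians nearer to that of all genes than the members did. On 44% fat in NZO/HlLtJ, 34.2% of all genes were called, 17.3% higher and 16.9% lower. Counting both directions together, none of the 3 lists that follow exceeded that share. Of 36 translation factors 8 were higher and 3 lower (median 0.08), among them Eef1b2 (0.44), Eef1g (0.34), Eef1a1 (0.29) and Eif3f (0.28). Of 57 ribosome biogenesis genes 3 were higher and 10 lower (median -0.04), with Nhp2 (0.44) higher and Utp15 (-0.46), Rrp1b (-0.41) and Wdr12 (-0.38) lower. Of 13 genes of RNA polymerase I, which transcribes the ribosomal RNA, 1 was higher and 3 lower (median -0.16), with Polr1d (0.19) higher and Polr1b (-0.40), Ubtf (-0.30) and Ttf1 (-0.27) lower.

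Of 21 regulators in the mTORC1, MYC and TOP list, 1 was higher and 4 lower on 44% fat in NZO/HlLtJ (median -0.18), with Mycl (0.76) higher and Tsc1 (-0.58), Sesn2 (-0.57) and Mxd1 (-0.50) among the lower. Of 12 other p53 targets 3 were higher and 1 lower (median 0.10): Eda2r (1.23), Phlda3 (1.20) and Ccng1 (0.26) rose, and Ei24 (-0.16) fell. In each of these 2 lists, the share called in both directions together was not above the 34.2% of all genes. On 10% fat, NZO/HlLtJ islets had 20 translation factors and 21 biogenesis genes higher than C57BL/6J and 1 and 2 lower, where 42.1% of all genes were called. In the same comparison 10 of 10 markers of dividing cells, 8 of 10 of fibroblasts, 8 of 8 of endothelial cells and 5 of 8 of duct cells were higher, and 6 of 7 markers of alpha cells and 4 of 5 of delta and gamma cells were lower. Their part in these counts was not tested. With library totals the counts higher and lower for the diet in NZO/HlLtJ were 1 and 1 for translation factors, 0 and 5 for biogenesis, 0 and 2 for RNA polymerase I, 0 and 4 for the mTORC1, MYC and TOP list and 2 and 0 for p53 targets. Of all 20306 genes, 2083 were higher and 2546 lower in that setting.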

How the data were processed

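Islet polyA RNA of 45 libraries was sequenced as 150 bp read pairs to a target of 100 M pairs, per the labels. The deposited table holds estimated counts per gene, of which 23.6% are not whole; they were rounded before testing. A second deposited table holds variance-stabilised values on a log2 scale, made by the authors. The submitters' processing notes name GRCm38 and DESeq2; for the aligner, the counter, strand and strain variants, no name or setting is given in the sources used here.

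Groups were taken from strain, sex and diet in the labels. Replicates were numbered in accession order, which pairs no samples. Counts were tested with edgeR 4.0.16 in R 4.3.3 (quasi-likelihood, robust, TMM, filterByExpr) in 1 model of the 12 groups, with 17 comparisons, Benjamini-Hochberg adjustment over the 20306 genes tested and a threshold of 0.05; the SE is the log2 fold change divided by the square root of F. The depth was 57.2 M to 110.0 M counts per library, with 3 or 4 libraries per group. The fit was tested on simulated counts.

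Alternatives were other scalings, no filter, DESeq2 1.42.0, limma 3.58.1 on the deposited log2 values, code series or an acinar score (from the acinar list) as covariates, only the strains compared, and leaving out libraries. Summing copies was chosen after seeing the data; a copy is a pseudogene or single-exon gene in GENCODE M21 with at least 95% identity over at least 80% of the coding sequence and at most 3 times the length. Members, gene lists and marker lists were chosen with earlier results of these data known. Named members were the 6 called with the largest change in each direction per comparison, duplicates with their parents, X-linked members, stalk genes, Rps6 and extremes of level and spread; from related lists, at most 4 called genes each. Some members and related genes that the rule names are not reported here.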

Additional observations from a re-analysis of the deposited data

Results flagged for a closer look

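Over 126 groups tested for a library far from the others of its group, 7 values stood apart; chance alone gives about 1 in 20 such groups. They were Rplp0 in CAST/EiJ female 10% fat replicate 4 (866 CPM), Rps27l in CAST/EiJ male 44% fat replicate 2 (36.8 CPM), and Rpl22 in C57BL/6J male 44% fat replicate 1 (64.9 CPM). The others were Rps4l in NZO/HlLtJ female 10% fat replicate 2 (21.7 CPM), Rpl19 in C57BL/6J male 44% fat replicate 1 (29.5 CPM), Rps12 in C57BL/6J male 44% fat replicate 2 (10.5 CPM) and Rpl27 in CAST/EiJ male 44% fat replicate 2 (113 CPM). CAST/EiJ male 44% fat replicate 2 and C57BL/6J male 44% fat replicate 1 came up 2 times each.

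The diet effect differed between groups by an interaction test for 1 member between NZO/HlLtJ males and females (Rpl22l1), for 36 members between NZO/HlLtJ and C57BL/6J and for 73 members between NZO/HlLtJ and CAST/EiJ.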

How the results depend on the processing

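For the 6 most changed called genes in each direction per comparison, with Rpl5 and Rpl7 between CAST/EiJ and C57BL/6J, 727 values under an alternative kept direction and side of the threshold, 91 lost the threshold and 10 changed sign; of the counts of members called, 348 stayed within 1.5 times and 81 did not. The causes were not tested unless the setting itself removed samples. For the diet in NZO/HlLtJ the count of 64 became 7 with library totals, 31 with the acinar score, 35 with only the strain compared and 19 without the 5 libraries; it was 72 with RLE scaling, DESeq2, limma or copies summed, 60 without the filter and 67 with code series, and 17 to 76 with 1 library left out. Apart from the fits with 1 library left out, the calls over all genes for this comparison ranged from 4629 with library totals to 7445 with code series. In NZO/HlLtJ females 12 became 1 with library totals and 2 with only the strain compared (4 to 22 with 1 library left out). Over all genes 1205 and 1303 were called in these female settings. In NZO/HlLtJ males 17 became 35 with RLE scaling, 2 with library totals, 29 with code series, 11 with the acinar score, 6 with only the strain compared, 0 without the 5 libraries, 38 with DESeq2 and 43 with limma (0 to 71 with 1 library left out). The 1 call between NZO/HlLtJ sexes became 0 with library totals, code series, only the strain compared and without the 5 libraries (0 to 1 with 1 library left out). In CAST/EiJ females 1 became 0 with library totals, code series, the acinar score, only the strain compared, without the 5 libraries and with limma, and 13 with DESeq2 (0 to 29 with 1 library left out). Against C57BL/6J the diet count of 36 became 0 with library totals, 5 with the acinar score and 1 without the 5 libraries. With DESeq2 it became 57 (4 to 71 with 1 library left out). Against CAST/EiJ 73 became 4 with library totals (49 to 77 with 1 library left out). With copies summed, 30 became 15 between CAST/EiJ and C57BL/6J and 32 became 20 between NZO/HlLtJ and CAST/EiJ; with 1 library left out these were 29 to 32 and 28 to 53, and 9 to 50 between NZO/HlLtJ and C57BL/6J. The comparisons with 0 calls kept 0 with any 1 library left out. Signs turned with copies summed for Rpl17 between NZO/HlLtJ and C57BL/6J (0.19); for Rps13 (0.092), Rpl37 (0.19), Rpl5 (-0.29) and Rpl7 (-0.22) between CAST/EiJ and C57BL/6J; and between NZO/HlLtJ and CAST/EiJ for Rpl17 (0.16), Rps12 (0.19), Rpl19 (0.046), Rpl27 (0.29) and Rpl37 (-0.12). No paired analysis was possible because replicates were numbered in accession order. The code series run across groups but give no pairs of single libraries; the fits with series as a factor are given above.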
